A study of Arabidopsis thaliana with 4 samples.

Results

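The genes described are those whose symbol begins with SCPL, BGLU, BGAL, PAP or GH9, in roots of Arabidopsis thaliana that were starved of potassium or kept supplied with it. They were taken as every probe set of the Affymetrix ATH1 array that has exactly 1 gene in the platform annotation and a symbol of that form. This gave 44 probe sets for 44 genes, of 22746 probe sets in all and 13513 with exactly 1 gene: 20 BGLU, 15 GH9, 6 SCPL, 2 PAP and 1 BGAL. In the RefSeq gene table, 40 BGLU, 21 GH9, 14 SCPL, 32 PAP and 15 BGAL symbols have this form, so BGAL and PAP were represented by few of their genes. The rule reads only names and no measured value, but these families were picked for description with earlier results of these data known.

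The plants were wild type, accession Col-0, raised hydroponically to an age of 4 to 5 weeks at 22 °C with light for 16 h a day. Control roots and roots without potassium were each sampled 48 h and 96 h after transfer, with 1 array for each of these 4 groups. All plants came from control solution, and the controls were transferred too, into solution with 0.5 mM KH2PO4 and 1.25 mM KNO3. In the starved groups these salts were replaced by 0.5 mM H3PO4 and 1.25 mM HNO3. Phosphate and nitrate were thus still supplied, and the remaining salts were the same. Whether the pH of the solution without potassium was adjusted is not stated. The lack of potassium and any difference in acidity therefore cannot be told apart. The RNA came from a mixture of roots of plants of different age, and no group had a second array.

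Serine carboxypeptidase-like (SCPL) proteins are secreted or vacuolar enzymes of the alpha/beta hydrolase fold. Some cut single amino acids from the carboxyl end of proteins, and others have become acyltransferases that use glucose esters as donors. Beta-glucosidases (BGLU) release glucose from stored glucosides of plants, among them coumarins, monolignols and glucosinolates, and in roots many are kept apart from their substrates until cells are damaged or until the product is needed. Beta-galactosidases (BGAL) trim galactose from wall polysaccharides. The GH9 proteins are endo-beta-glucanases that act on cellulose and related glucans. Most GH9A enzymes are anchored in a membrane, GH9B enzymes are secreted, and GH9C enzymes are secreted with an added carbohydrate-binding module. PAP followed by a number usually stands for purple acid phosphatase, a metal enzyme that frees phosphate and is neither a peptidase nor a glycoside hydrolase. PAP20 is of that kind, whereas PAP85 is a vicilin-like seed storage protein of the cupin family. The PAP symbols are therefore 2 unlike proteins that share letters and are reported apart.

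The values are MAS5 signals, a linear brightness per probe set with each array scaled as a whole. The arrays had median signals between 46.8 and 47.8. A probe set was tested when its signal reached the array's own 40th percentile, between 29.4 and 30.4, on at least 2 arrays. Of the 44 members, 16 did so: 6 BGLU, 6 GH9 and 4 SCPL. Each of these 16 was above that level on all 4 arrays, so none entered through 1 group alone. All 16 lay between 30.9 and 664.1. The 25S rRNA control measured 795.5 on the starved 48 h array and 58.7 to 73.1 on the others. The hybridisation control CreX-3 measured 855.5 on the control 96 h array and 1494.7 to 1758.0 on the others. Their part in the results was not tested. As checks of the tissue, all 3 measured root hair markers passed the filter, and so did all 10 measured genes of green tissue. Fewer cells of a type and less RNA per cell cannot be told apart in such whole-root RNA.

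**Figure D1:**
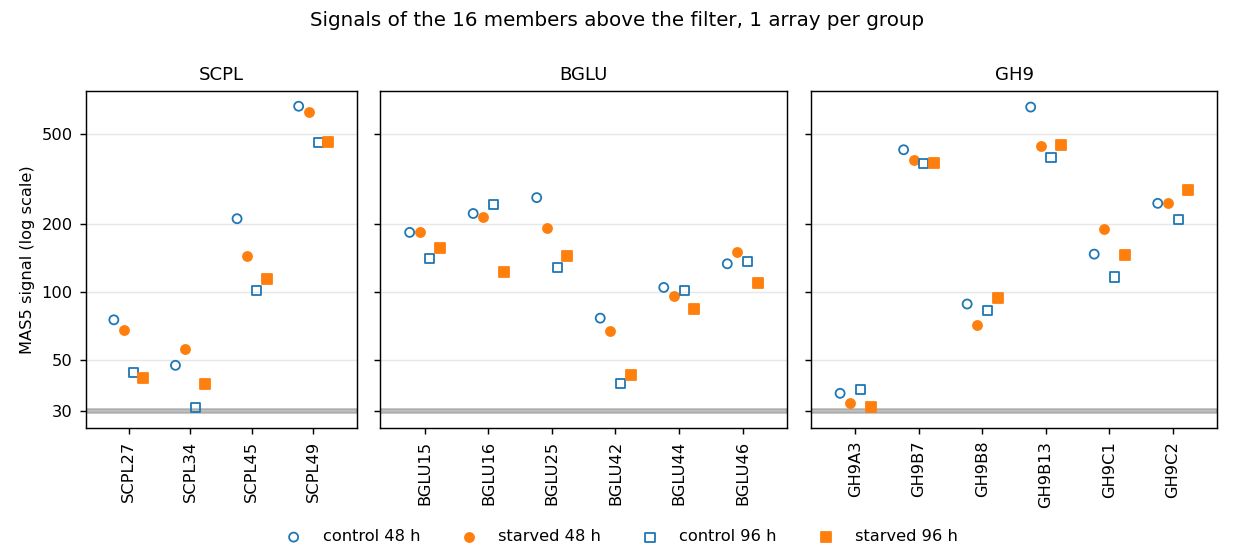
MAS5 signal (vertical log axis) of the 16 members that passed the filter, by family, with 1 marker for each of the 4 arrays (open, control; filled, starved; circles, 48 h; squares, 96 h) and a grey band at the 40th percentile of the arrays, from 29.4 to 30.4. All 4 SCPL genes have both squares below both circles, an order found for 26.4% of all tested probe sets. BGLU16 has 1 marker, starved 96 h, well below its other 3.

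The first comparison was 96 h against 48 h. In this comparison 4 members fell, and none rose: the carboxypeptidase-like genes SCPL27 and SCPL45, and the beta-glucosidase genes BGLU25 and BGLU42. Averaged over control and starved roots they were 1.49-fold to 1.58-fold lower at 96 h. These are 4 of 16 tested members on the lower side, where 3.24% of the 13998 tested probe sets were called, and 0 of 16 on the higher side, where 4.11% were called. All 4 calls ended without the control 48 h, the starved 48 h or the control 96 h array, in fits that also drop the solution term. Without the starved 96 h array only the call for BGLU25 was left. The count of 4 was 0 with no filter or no solution term. Calls are from limma, a linear model with solution and time as terms fitted to all tested probe sets, at an adjusted p below 0.05. The model leaves 1 residual degree of freedom, so each SE leans on a spread pooled over probe sets, and no p-value measures the spread between separate harvests. Log2 differences and folds are of signal + 16, which understates changes of dim probe sets.

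The 4 tested SCPL genes stood lower at 96 h in both solutions, as did 4686 of the 13998 tested probe sets. Both 96 h signals lay below both 48 h signals for 26.4% of all tested probe sets. SCPL49, also called carboxypeptidase Y and similar to the vacuolar carboxypeptidase of yeast, gave 664.1 (control) and 623.7 (starved) at 48 h. At 96 h it measured 457.1 and 463.8. Both 96 h signals were below both 48 h signals, while the signals of control and starved roots overlapped. SCPL45 gave 211.5 (control) and 144.5 (starved) at 48 h against 101.5 and 114.4 at 96 h. SCPL45 was highest on the control 48 h array, and its times did not overlap either.

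SCPL27 gave 75.6 (control) and 67.9 (starved) at 48 h against 44.4 and 41.7 at 96 h. SCPL34 gave 47.6 and 56.1 at 48 h against 30.9 and 39.4 at 96 h. For both genes the times did not overlap. The control 96 h signal of SCPL34 was close to the 40th percentile of that array.

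The mean log2 difference of 96 h against 48 h was -0.63 ± 0.17 (SE, 2 arrays per time) for SCPL45 (limma adjusted p = 0.032). It was -0.57 ± 0.16 (SE, 2 arrays per time) for SCPL27 (limma adjusted p = 0.035). SCPL49 and SCPL34 did not pass the test, with mean log2 differences of -0.47 ± 0.15 and -0.41 ± 0.16 (SE) and limma adjusted p-values of 0.0742 and 0.157. The sizes in control and starved roots were alike for SCPL27 (-0.60 and -0.54), SCPL49 (-0.52 and -0.42) and SCPL34 (-0.44 and -0.38), and unequal for SCPL45 (-0.95 and -0.30). The family median was -0.56 in control and -0.40 in starved roots, beside -0.01 in control roots over all tested probe sets. Both calls ended with a pseudocount of 1, cyclic loess normalization, no filter or no solution term, and that for SCPL45 also with equal medians (limma adjusted p = 0.0586) or a filter at the 60th percentile, which SCPL27 did not pass and where it was not tested. Both also ended with any 1 array left out, with limma adjusted p-values of 0.0583 to 0.384 for SCPL27 and 0.0586 to 0.471 for SCPL45. The mean log2 difference of SCPL45 was -0.38 without the control 48 h array.

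**Figure D2:**
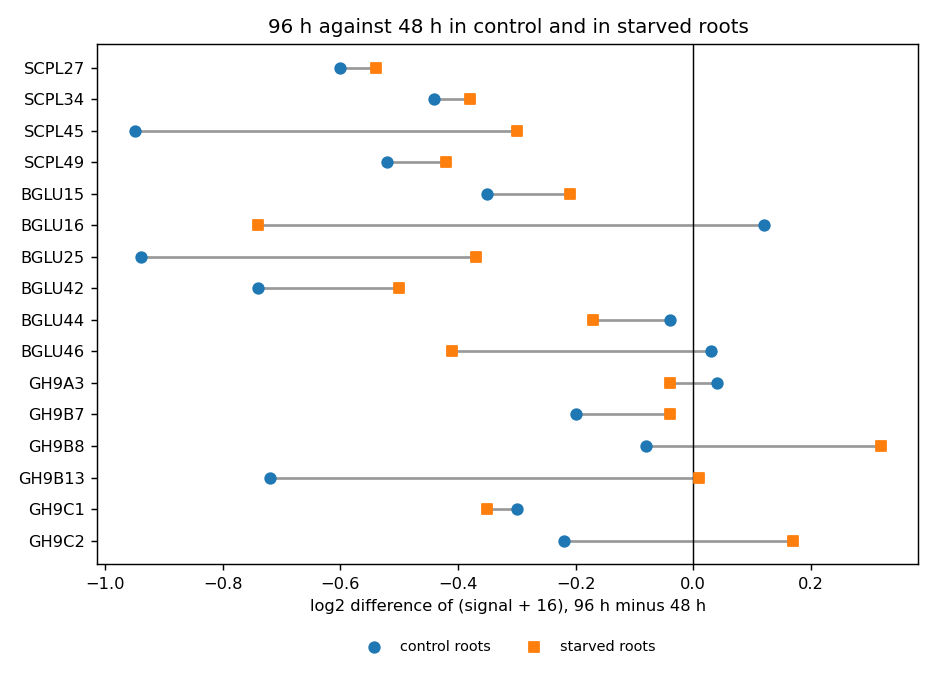
Log2 difference of signal + 16, 96 h minus 48 h, for each of the 16 tested members in control roots (circles) and starved roots (squares), joined by a line. All SCPL points lie between -0.95 and -0.30, whereas the GH9 points lie on both sides of 0.

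Among the beta-glucosidases, BGLU25 and BGLU42 fell at 96 h. BGLU42, which iron deficiency induces in roots and which takes part in the release of coumarins, gave 76.9 (control) and 67.7 (starved) at 48 h. At 96 h it measured 39.6 and 43.3. The times did not overlap, and the order of control and starved roots turned between them. BGLU25 gave 262.1 and 192.4 at 48 h against 129.0 and 144.8 at 96 h, so its control 48 h signal was again the highest of the 4.

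The mean log2 difference was -0.66 ± 0.16 (SE, 2 arrays per time) for BGLU25 (limma adjusted p = 0.0211). It was -0.62 ± 0.16 (SE, 2 arrays per time) for BGLU42 (limma adjusted p = 0.0253). In control and starved roots it was -0.94 and -0.37 for BGLU25, and -0.74 and -0.50 for BGLU42. BGLU42 was the only member called with a pseudocount of 1 (limma adjusted p = 0.0478) and after cyclic loess normalization (0.0454), and BGLU25 the only one with the filter at the 60th percentile (0.0471), which BGLU42 did not pass. Neither was called without the filter, where the limma adjusted p-values were 0.194 for BGLU25 and 0.211 for BGLU42, or without the solution term (0.0849 and 0.0663). With 1 array left out, BGLU42 was not called in any of the 4 fits (limma adjusted p = 0.0526 to 0.367), and BGLU25 was called only without the starved 96 h array (0.0383, otherwise 0.0812 to 0.409).

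The other 4 tested BGLU genes did not pass the test for harvest. BGLU15, whose enzyme acts on a flavonol glycoside, gave 184.0 (control) and 185.1 (starved) at 48 h against 140.4 and 157.7 at 96 h. The times did not overlap, and the mean log2 difference was -0.28 ± 0.15 (SE) with a limma adjusted p of 0.294. BGLU16 gave 223.0 and 215.3 at 48 h against 243.8 and 122.4 at 96 h. Only the starved 96 h array was low for BGLU16, and its log2 difference was 0.12 in control and -0.74 in starved roots. Without the control 96 h array its mean was -0.76 (limma adjusted p = 0.00922), and without the starved 96 h array 0.14.

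BGLU46, an enzyme of monolignol glucosides such as coniferin, gave 133.7 and 151.4 at 48 h against 137.0 and 109.7 at 96 h. BGLU44 gave 105.1 and 96.6 at 48 h against 101.8 and 84.4 at 96 h. For both genes the times overlapped, and the limma adjusted p for harvest was 0.532 and 0.752. The median log2 difference of the 6 BGLU genes was -0.20 in control and -0.39 in starved roots.

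None of the 6 tested GH9 genes passed the test for harvest. GH9B13, a secreted endoglucanase gene, gave 658.5 (control) and 441.1 (starved) at 48 h against 394.1 and 445.7 at 96 h. Its control 48 h signal stood above the 3 others, which lay close together, and the log2 difference was -0.72 in control and 0.01 in starved roots. The mean was -0.35 ± 0.18 (SE) with a limma adjusted p of 0.269.

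GH9B7 gave 426.5 and 382.4 at 48 h against 370.3 and 371.9 at 96 h. GH9C1, of the class with a carbohydrate-binding module, gave 147.5 and 190.4 at 48 h against 116.9 and 146.4 at 96 h. These were the GH9 genes with both 96 h signals below both 48 h signals, although for GH9C1 the gap was that between 147.5 and 146.4. Their mean log2 differences were -0.12 and -0.32, with limma adjusted p-values of 0.719 and 0.221.

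GH9C2 gave 247.3 and 249.0 at 48 h against 210.8 and 282.3 at 96 h. GH9B8 gave 88.8 and 72 at 48 h against 82.9 and 94 at 96 h. GH9A3, also called KOR3 and a relative of the KORRIGAN endoglucanase of cellulose synthesis, gave 35.8 and 32.5 at 48 h against 37.4 and 31.1 at 96 h. In these 3 genes the times overlapped, and the sign of the harvest difference was opposite in control and starved roots. The median of the 6 GH9 genes was -0.21 in control and -0.01 in starved roots.

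Across the 3 tested families, both 96 h signals lay below both 48 h signals for 9 of the 16 members, and above them for 0. Over all tested probe sets the shares were 26.4% and 25.1%. The 9 were all 4 SCPL genes, 3 of 6 BGLU genes (BGLU15, BGLU25 and BGLU42) and 2 of 6 GH9 genes (GH9B7 and GH9C1). The median of the mean log2 differences was -0.52 for SCPL, -0.30 for BGLU and -0.07 for GH9, beside -0.01 for all tested probe sets. No test between the families was run, and no single gene was at least 2-fold lower or higher in control roots (1.61% of all tested probe sets) or in starved roots (2.46%). With a pseudocount of 1, SCPL45 and BGLU25 were at least 2-fold lower in control roots.

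**Figure D3:**
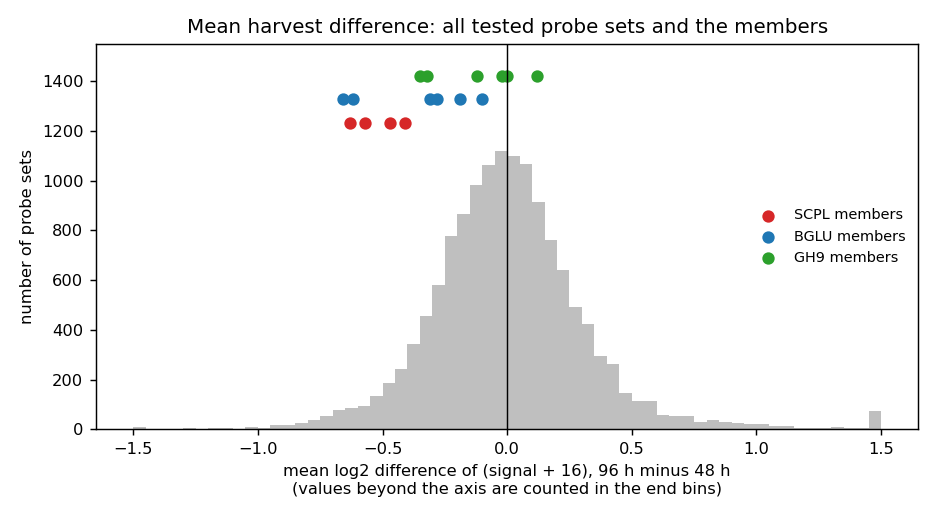
Histogram of the mean log2 difference of signal + 16, 96 h minus 48 h, for the 13998 tested probe sets (grey bars, number per bin), with the members as points above it by family; the height of the points carries no value. The SCPL points lie between -0.63 and -0.41, left of the centre of the histogram, and the GH9 points between -0.35 and 0.12.

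Other transcripts moved between the same harvests, where 3.24% of all tested probe sets fell and 4.11% rose. Each call of this paragraph ended without the control 48 h array. The 3 root hair markers EXPA7, EXPA18 and XTH26 fell at 96 h, with a summed signal of 326.5 (control) and 490.4 (starved) at 48 h against 186.6 and 272.7 at 96 h. XTH26 passed the filter only through its 48 h signals, 60 (control) and 77.2 (starved). At 96 h it gave 14.2 and 24.3, below the 40th percentile, so its fall is not independent of the filter. Of 10 green tissue genes 5 rose, with a summed signal of 762.6 and 816.2 at 48 h and 1284.6 and 1030.6 at 96 h. Both measured hypoxia genes, PDC2 and AT3G10040, rose, with a summed signal of 546.1 and 697.7 at 48 h and 1532.7 and 2018.2 at 96 h. No gene of these lists was at 0 on any array. Their part in the differences of the SCPL and BGLU genes was not tested, and the harvest time and anything else that differed between the harvests cannot be told apart.

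The second comparison, starved against control roots, asked which of these genes differed when potassium was withheld. No member passed the limma test for starvation: 0 of 16, where 0.193% of all tested probe sets were called. At an unadjusted p below 0.05 there were 2, BGLU16 and GH9C1, where 7.39% of all tested probe sets had such a p. At 48 h and at 96 h none was at least 2-fold different, beside 0.143% and 0.850% of all tested probe sets. Each solution had a single array at each time, so differences within a time have no test.

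Among the 16 tested members, BGLU16 had the widest starvation difference. Its signals of 223.0 and 215.3 at 48 h differed little, and at 96 h 243.8 in control roots stood against 122.4 in starved roots, 1.88-fold lower. Both starved signals were below both control signals, but by a narrow margin at 48 h. The mean log2 difference was -0.48 ± 0.18 (SE, 2 arrays per solution), with a limma adjusted p of 0.464 (unadjusted 0.0189). Leaving out the starved 96 h array gave -0.11, and leaving out the starved 48 h array gave -0.85.

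GH9C1 was the member with the next smallest p. It was higher in starved roots at both times, with 190.4 against 147.5 at 48 h and 146.4 against 116.9 at 96 h, and log2 differences of 0.34 and 0.29. The mean was 0.31 ± 0.15 (SE, 2 arrays per solution), with a limma adjusted p of 0.675 (unadjusted 0.0499). It was 0.14 and 0.16 without the starved 48 h or the control 96 h array, and 0.46 and 0.49 without the control 48 h or the starved 96 h array. The control 48 h and starved 96 h signals were nearly equal, so the groups overlapped.

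GH9C2 was the only tested member with both starved signals above both control signals (1 of 16, beside 11.6% of all tested probe sets). Its log2 differences were 0.01 at 48 h and 0.40 at 96 h, so the order at 48 h rests on 249.0 against 247.3. BGLU16, BGLU44 and GH9A3 had both starved signals below both control signals (3 of 16, beside 13.0%). BGLU44 stood at -0.10 and -0.23, and GH9A3 at -0.10 and -0.18. The 3 limma adjusted p-values other than that of BGLU16 were 0.927 for GH9C2, 0.963 for BGLU44 and 0.996 for GH9A3.

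Among the SCPL genes, SCPL34 was higher in starved roots at both times (0.18 and 0.24) and SCPL27 lower at both (-0.13 and -0.07). SCPL49 stood at -0.09 and 0.02, so it differed little at either time. SCPL45 stood at -0.50 at 48 h and 0.15 at 96 h. The limma adjusted p for starvation of these 4 genes was at least 0.932.

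The starvation difference had opposite signs at 48 h and 96 h for 8 of the 16 members, beside 49.4% of all tested probe sets. In 7 of the 8 it was negative at 48 h: BGLU25 (-0.42 and 0.15), BGLU42 (-0.15 and 0.10), GH9B13 (-0.56 and 0.17), GH9B7 (-0.15 and 0.01), GH9B8 (-0.25 and 0.15), SCPL45 and SCPL49. BGLU46 ran the other way, with 0.16 at 48 h and -0.28 at 96 h. How opposite signs split by direction over all tested probe sets was not counted. At 48 h alone the difference was negative for 11 of the 16 members and for 7371 of the 13998 tested probe sets. The control 48 h array was the highest of the 4 for 8 of the 16 members and the lowest for 0, beside 26% and 21.8% of all tested probe sets. The control 96 h array was the lowest for 10, beside 24.9%. The starvation difference at 48 h and the harvest difference in control roots share the control 48 h array, so a high value there lowers both.

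**Figure D4:**
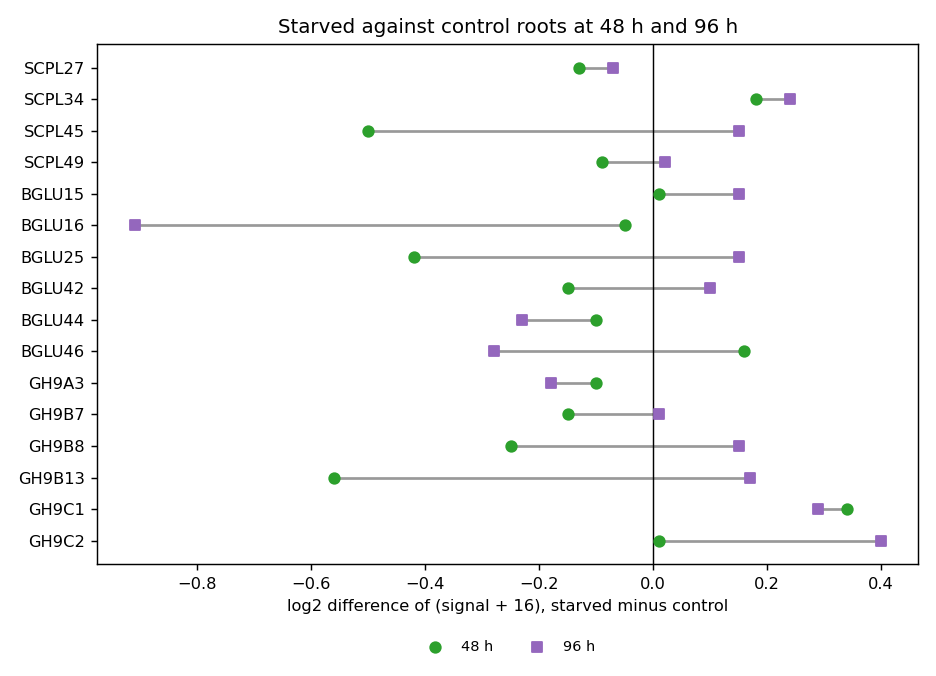
Log2 difference of signal + 16, starved minus control, for each of the 16 tested members at 48 h (circles) and 96 h (squares), joined by a line. BGLU16 at 96 h lies at -0.91, GH9C1 lies at 0.34 and 0.29, and 8 of the 16 lines cross 0.

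The remaining 28 members stayed below the filter: 14 BGLU, 9 GH9, 2 SCPL, 2 PAP and 1 BGAL. Their signals lay between 0.421 and 35.2, near the floor of the measurement, and 26 of them did not reach the 40th percentile on any array. The 2 that reached it on 1 array were BGLU40, with 35.2 in starved roots at 96 h, and GH9B18, with 31.5 in starved roots at 48 h. Differences of such dim probe sets are given as values, and their size depends on the pseudocount.

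GH9C3, of the class with a carbohydrate-binding module, gave 17.8 (control) and 2.02 (starved) at 48 h against 18.7 and 2.42 at 96 h. It was low on both starved arrays and the groups did not overlap, with log2 differences of -0.91 and -0.92. Without the filter its mean log2 difference was -0.91 ± 0.13 (SE), with a limma adjusted p of 0.797 (unadjusted 0.000471). All 4 of its signals were below the 40th percentile, so the values describe a probe set close to background.

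BGLU36 measured 15.3, 12.2 and 16.7 on the control 48 h, control 96 h and starved 96 h arrays and 1.31 on the starved 48 h array. GH9B16 gave 1.73 (control) and 4.59 (starved) at 48 h against 4.3 and 22.7 at 96 h. GH9B18 gave 19.2 and 31.5 at 48 h against 26.8 and 11.7 at 96 h. BGLU36 was low on 1 array and GH9B16 high on 1, whereas the 4 signals of GH9B18 were spread with none apart. BGLU40 gave 13.8 and 12.2 at 48 h against 24.3 and 35.2 at 96 h, higher at 96 h in both solutions, and without the filter its limma adjusted p for harvest was 0.232.

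BGLU45, which like BGLU46 acts on monolignol glucosides, gave 9.16 (control) and 14.5 (starved) at 48 h against 8.09 and 8.86 at 96 h. BGLU28, known for the breakdown of glucosinolates when sulfur is short, measured between 8.12 and 11.1 on the 4 arrays. GH9A4 gave 21.3 and 11.7 at 48 h against 13.5 and 9.35 at 96 h. For these 3 genes every signal was below the 40th percentile of its array.

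The only measured beta-galactosidase, BGAL16, gave 25.4 (control) and 26 (starved) at 48 h against 19.5 and 22.9 at 96 h, below the 40th percentile on all 4 arrays. The purple acid phosphatase gene PAP20 gave 4.56 and 2.31 at 48 h against 11.6 and 6.11 at 96 h. PAP85, the vicilin-like gene, gave 10.7 and 10.5 at 48 h against 7.75 and 4.8 at 96 h. Neither the BGAL nor the PAP symbols thus hold a gene with a tested difference for starvation or for harvest.

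**Figure D5:**
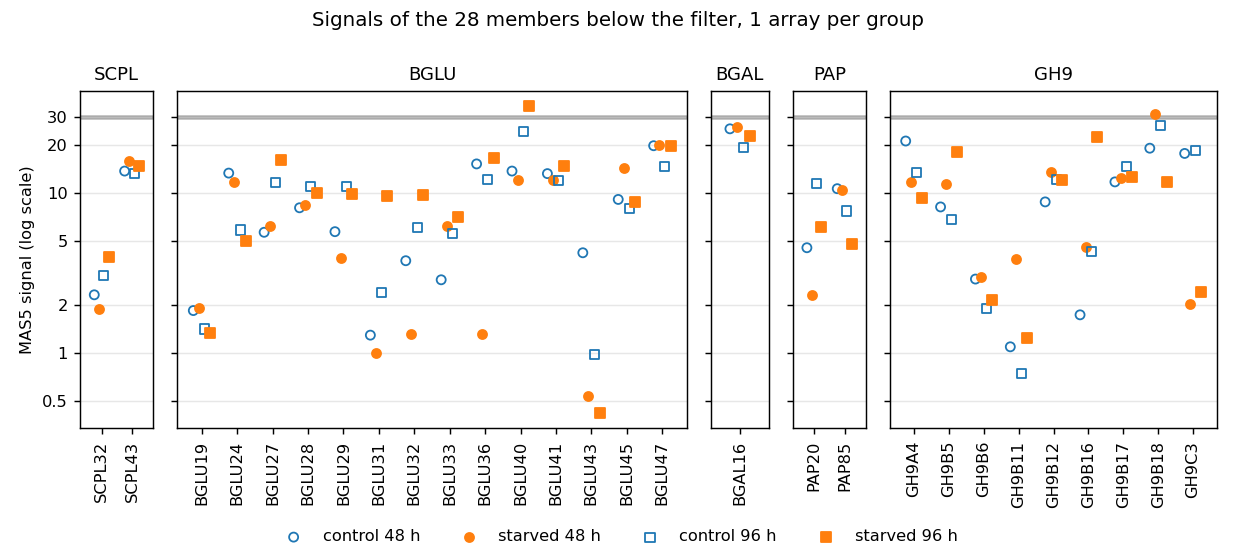
MAS5 signal (vertical log axis) of the 28 members below the filter, by family, with 1 marker for each of the 4 arrays (open, control; filled, starved; circles, 48 h; squares, 96 h) and a grey band at the 40th percentile of the arrays. BGLU40 and GH9B18 reach the band on 1 array each, and GH9C3 has both filled markers near 2.

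Many of these genes lie side by side in the genome. In the gene order of the RefSeq table for assembly TAIR10.1, 16 members neighbour another member, in 9 pairs. In 4 pairs, all of beta-glucosidases, 1 gene passed the filter and its neighbour did not: BGLU15 beside BGLU28, BGLU16 beside BGLU27, BGLU44 beside BGLU43, and BGLU46 beside BGLU45. In 5 pairs neither passed, among them the run GH9B16, GH9B17 and GH9B18, and in 0 pairs both did. All 44 probe set identifiers end in the plain form, which the array maker uses for probe sets meant for 1 transcript, but cross-hybridisation between neighbours of similar sequence was not tested.

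Genes that work beside these families were described from lists, which were chosen with earlier results of these data known. A count of calls within a list, set beside the share of all tested probe sets, is therefore description and not a test of the list. Among monolignol and coumarin genes 2 of 5 tested rose with starvation, where 0.193% of all tested probe sets were called in either direction: UGT72E1 (mean log2 difference 0.80, limma adjusted p = 0.0393) and UGT72E2 (0.81, limma adjusted p = 0.043), which make monolignol glucosides. Each of these calls held in 1 of 13 alternatives, the pseudocount of 64, and ended in the other 12, all 4 fits with 1 array left out among them. UGT72E3, tested in the same list, was not called, with log2 starvation differences of 0.09 at 48 h and -0.28 at 96 h (mean -0.10). BGLU46, which hydrolyses monolignol glucosides, stood at -0.06 ± 0.16 (SE) in the same test. At 96 h against 48 h UGT72E1 (0.76) and the cinnamoyl-CoA reductase gene CCR2 (1.24) rose, 2 of the 5 tested. Over all tested probe sets 4.11% rose. Of 5 tested genes of ER bodies, which store beta-glucosidases, and of jacalin-like lectins, 2 rose at 96 h, beside the same 4.11%. They were JAL33 (0.75), unequal in control (1.18) and starved roots (0.32), and JAL22 (0.80). Their calls held in 5 and 10 of 13 alternatives. The ER body genes NAI1 and NAI2 did not pass for harvest (limma adjusted p = 0.157 and 0.788). Of the 5 genes 0 moved with starvation.

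Of 14 tested genes listed for xyloglucan, pectin or the wall's extension, 0 passed for starvation. At 96 h 4 of them fell, where 3.24% of all tested probe sets fell: XTH26 (-1.27), EXPA7 (-0.68), XTH16 (-0.60) and EXPA18 (-0.55). All but XTH16 are the root hair markers given above, and XTH26 passed the filter only through its 48 h signals. The call for XTH16 held in 2 of 13 alternatives, and its log2 difference was -0.26 in control and -0.94 in starved roots. Of 7 tested genes listed for cellulose synthesis and associated wall genes, 0 passed for either effect, and their median was 0.01 for harvest and -0.09 for starvation. They were COB, CSLD2, CSLA03, CSLC04, CSLC5, CSLC6 and CSLC12, with no cellulose synthase (CESA) gene among them. Among 4 other proteases, the subtilase gene SBT4.12 fell (-0.89) and SBT1.3 rose (0.65) at 96 h, and 0 passed for starvation. The protease gene ARA12 was counted in this list and also among the 14 above. The call for SBT4.12 held in 8 of 13 alternatives and that for SBT1.3 in 4. The 4 glucosinolate genes, the 2 sinapate ester genes and the 2 phosphate starvation genes held 0 calls for either effect. Of 3 touch and wound genes, CML38 (2.04) rose at 96 h, where 4.11% of all tested probe sets rose. WRKY53 (-0.89) fell with starvation, where 0.193% of all tested probe sets were called in either direction. The call for WRKY53 held in 2 of 13 alternatives, a pseudocount of 64 and no variance trend, and ended in the other 11. The calls for harvest in these lists ended without the starved 48 h array. The limma adjusted p of each call named here was at most 0.0431.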

How the data were processed

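Root RNA of 4 samples was hybridised to single-colour ATH1 arrays, 1 per group. The authors deposited signal intensities, and the submitters' processing notes name MAS5 as the tool. Its settings and version are not stated there. The 2% trimmed mean of each deposited array was 100.01. Arrays were scaled to a trimmed mean of 100, the 64 control probe sets were set aside, and log2(signal + 16) was used. The filter kept 13998 of 22746 probe sets. limma 3.58.1 in R 4.3.3 fitted solution and time to the 4 arrays together (lmFit and trended eBayes, 1 residual and 14.94 prior degrees of freedom), with Benjamini-Hochberg adjustment over the 13998; calls are at an adjusted p below 0.05. Nothing in the labels gives separate cultures. Array precision is limited by their number.

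The platform annotation gave 13513 probe sets 1 gene symbol, 503 several and the other 8730 none, and all 44 members matched a RefSeq gene by Entrez identifier. Members and the 15 gene lists were chosen with earlier results of these data known. Of the lists, 12 had a tested gene; those for sugar starvation, endodermis and stele, and root tip had 0. A gene with the symbol PS2 was left out of the phosphate list because that symbol here names a presenilin. Named were all called members, the extremes of each family and genes of known role; genes that share a probe set, such as BGLU21 and BGLU22, are no members. The alternatives were other pseudocounts, filters and normalizations, no variance trend, fewer terms and fewer arrays.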

Additional observations from a re-analysis of the deposited data

Results flagged for a closer look

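For several members the 2 single-array differences of one kind ran in opposite directions, which is counted here whenever the signs differ, whatever the size. None of these differences between times or solutions was tested, since a single array in each group cannot provide an error for it. The change of the log2 starvation difference from 48 h to 96 h was 0.73 for GH9B13, 0.65 for SCPL45, 0.57 for BGLU25, 0.40 for GH9B8, 0.25 for BGLU42, 0.16 for GH9B7, 0.11 for SCPL49 and -0.44 for BGLU46. The harvest difference in starved roots minus that in control roots is the same quantity, and its signs were opposite for BGLU16 (-0.86), GH9B13 (0.73), BGLU46 (-0.44), GH9B8 (0.40), GH9C2 (0.39) and GH9A3 (-0.09). GH9B13 was high on the control 48 h array, and BGLU16 was low on the starved 96 h array.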

How the results depend on the processing

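No paired analysis was possible because each group holds 1 array and the groups share only 1 replicate number. The count of members called for starvation was 0 in all 13 alternatives. For harvest it was 4, and 4 with a pseudocount of 64, quantile normalization or no variance trend, and 3 when medians were made equal. It was 1 with a pseudocount of 1, cyclic loess or a 60th-percentile filter, and 0 with no filter or no solution term. Leaving out 1 array, which also drops the second term, gave 0 to 1: 0 without the control 48 h or the starved 48 h array, 1 (BGLU16, limma adjusted p = 0.00922) without the control 96 h array and 1 (BGLU25) without the starved 96 h array. Over all probe sets, the 27 calls for starvation became 5 at a pseudocount of 1, 12 by quantile normalization, 4 by equal medians, cyclic loess or the 60th-percentile filter. They became 0 with no filter (1346 at an unadjusted p below 0.05), no time term (278) or 1 array fewer (232 to 671). The 1029 calls for harvest became 103 with no filter, 615 with the 60th-percentile filter, 392 with no solution term, and 23 to 1123 with 1 array fewer. At a pseudocount of 1, 2 members were at least 2-fold lower in control roots at 96 h, where the count was otherwise 0. The BGLU median for harvest, -0.30, was -0.07 with no filter, over 20 genes in place of 6. No member ends in _s_at or _x_at, so leaving such probe sets out changed nothing.

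The harvest difference of the 4 called members kept its sign in these alternatives. With 1 array fewer, signs of other mean differences turned. For starvation these ran from -0.60 to 0.34 for BGLU25, -0.40 to 0.34 for BGLU42, -0.65 to 0.30 for SCPL45, -0.30 to 0.23 for SCPL49, -0.40 to 0.20 for SCPL27, -0.01 to 0.43 for SCPL34, -0.55 to 0.16 for GH9B13, -0.17 to 0.03 for GH9B7, -0.21 to 0.11 for GH9B8, -0.27 to 0.15 for BGLU46 and -0.10 to 0.26 for BGLU15. For harvest they ran from -0.76 to 0.14 for BGLU16, -0.22 to 0.01 for BGLU44, -0.22 to 0.18 for GH9C2, -0.01 to 0.24 for GH9B8 and -0.09 to 0.09 for GH9A3. GH9A3 also turned to -0.001 at a pseudocount of 1, -0.01 by quantile normalization or equal medians, and -0.003 by cyclic loess. The cause of these changes was not tested.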

Other observations

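A probe set with more than 1 gene lay outside the members: it is shared by BGLU21 and BGLU22, so which of them it measured is uncertain. Both encode root beta-glucosidases that act on scopolin, a coumarin glucoside. Its signal was 1816.3 (control) and 1831.4 (starved) at 48 h against 1364.5 and 1043.3 at 96 h. Both 96 h signals were below both 48 h signals. The mean log2 difference for harvest was -0.61 ± 0.16 (SE, 2 arrays per time), with a limma adjusted p of 0.0311, which ran from 0.00461 to 0.475 over the alternatives. For starvation the mean log2 difference was -0.19 ± 0.16 (SE), with a limma adjusted p of 0.959. The probe sets shared by GH9B14 and GH9B15 and by GH9B9 and GH9B10 stayed below the filter.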
